A study of Mus musculus with 2 samples.

Results

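The genes of platelet-derived growth factor (PDGF) signalling, the 4 ligand genes Pdgfa, Pdgfb, Pdgfc and Pdgfd and the 2 receptor genes Pdgfra and Pdgfrb, were followed across the cell types of fibrotic mouse liver. They were taken by symbol and make up 6 of the 32285 genes in the count tables. Single-cell RNA sequencing with Chromium 3′ v3 droplets was run on non-parenchymal cells, the cells left when hepatocytes are removed. One group was Mfap2+/+ (wild type) and the other Mfap2-/- (knockout for Mfap2, a glycoprotein of extracellular microfibrils), and both had received the liver toxin carbon tetrachloride (CCl4) by intraperitoneal injection for 8 weeks, so neither group shows an uninjured liver. Each genotype had 1 library. The labels do not state the strain, age or number of animals behind a library, nor whether the deletion was limited to a cell type.

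PDGF ligands are secreted as disulfide-linked dimers, and the receptors are tyrosine kinases of the cell surface that pair up when a ligand dimer binds. PDGF-A and PDGF-C act mainly through the alpha receptor (Pdgfra), PDGF-B binds both receptors, and PDGF-D acts mainly through the beta receptor (Pdgfrb). PDGF-C and PDGF-D are released in a latent form and need cutting by proteases before they bind. In injured liver, PDGF is known as a strong growth and migration signal for hepatic stellate cells, the vitamin A-storing cells next to the sinusoids that turn into collagen-producing myofibroblasts.

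Values are unique molecular identifiers (UMIs, tags that count single RNA molecules) of a gene per 1e+06 UMIs of all genes (CPM), summed over the cells of a class in 1 library. Brackets hold 95% intervals of counting error, exact Poisson for levels and exact conditional for ratios. Intervals for shares of cells were Clopper-Pearson and are not printed. With 1 library per genotype there was no replicate check and no test between genotypes, and genotype, animal and library preparation cannot be told apart. The log2 ratio is knockout over wild type with 1 UMI added to each sum. A gene was counted past 2-fold when its log2 ratio was at least 1 or at most -1 and it had at least 20 UMIs over both libraries.

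The libraries held 11783 and 12872 barcodes with a median of 4685 and 6511 UMIs, wild type first here and in all pairs of values below, and 40 barcodes occurred in both. Mfap2 itself had 215 and 2 UMIs in the cells kept, which fits the labels. After filtering, 10336 and 11428 cells formed 31 clusters, and 13 classes named from fixed marker genes held at least 50 cells in both libraries. The ligand and receptor genes took no part in forming the clusters. Cells without a class name, most of them shallow, held 2.29% and 2.29% of the Pdgfb UMIs.

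Both receptors were highest in 1 class of cells, and every ligand was highest in another. Among the 13 classes, cholangiocyte-like cells, the epithelial cells of the bile ducts, held the highest level of Pdgfa, Pdgfc and Pdgfd. Patrolling monocyte-like cells, the monocytes that crawl along vessel walls, held the highest mean level of Pdgfb. Some finer groups within other classes stood higher (values below). For Pdgfc these were the monocyte-derived macrophage-like cluster in both libraries and the Kupffer-like cluster in the knockout. For Pdgfd, and with overlapping intervals for Pdgfb, it was a small endothelial cluster in the wild type. For Pdgfa it was the fibroblast-like group in the knockout, with overlapping intervals. Macrophage-like cells contributed the largest number of Pdgfb and Pdgfc UMIs, and endothelial-like cells were the next highest source of Pdgfd after the cholangiocyte-like cells. Most Pdgfra and Pdgfrb UMIs lay in mesenchymal-like cells, which hold stellate-like and fibroblast-like cells. The plot of levels by class shows this division, and the plot of UMI shares shows how the number of cells of each class changes the order of the sources.

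**Figure D1:**
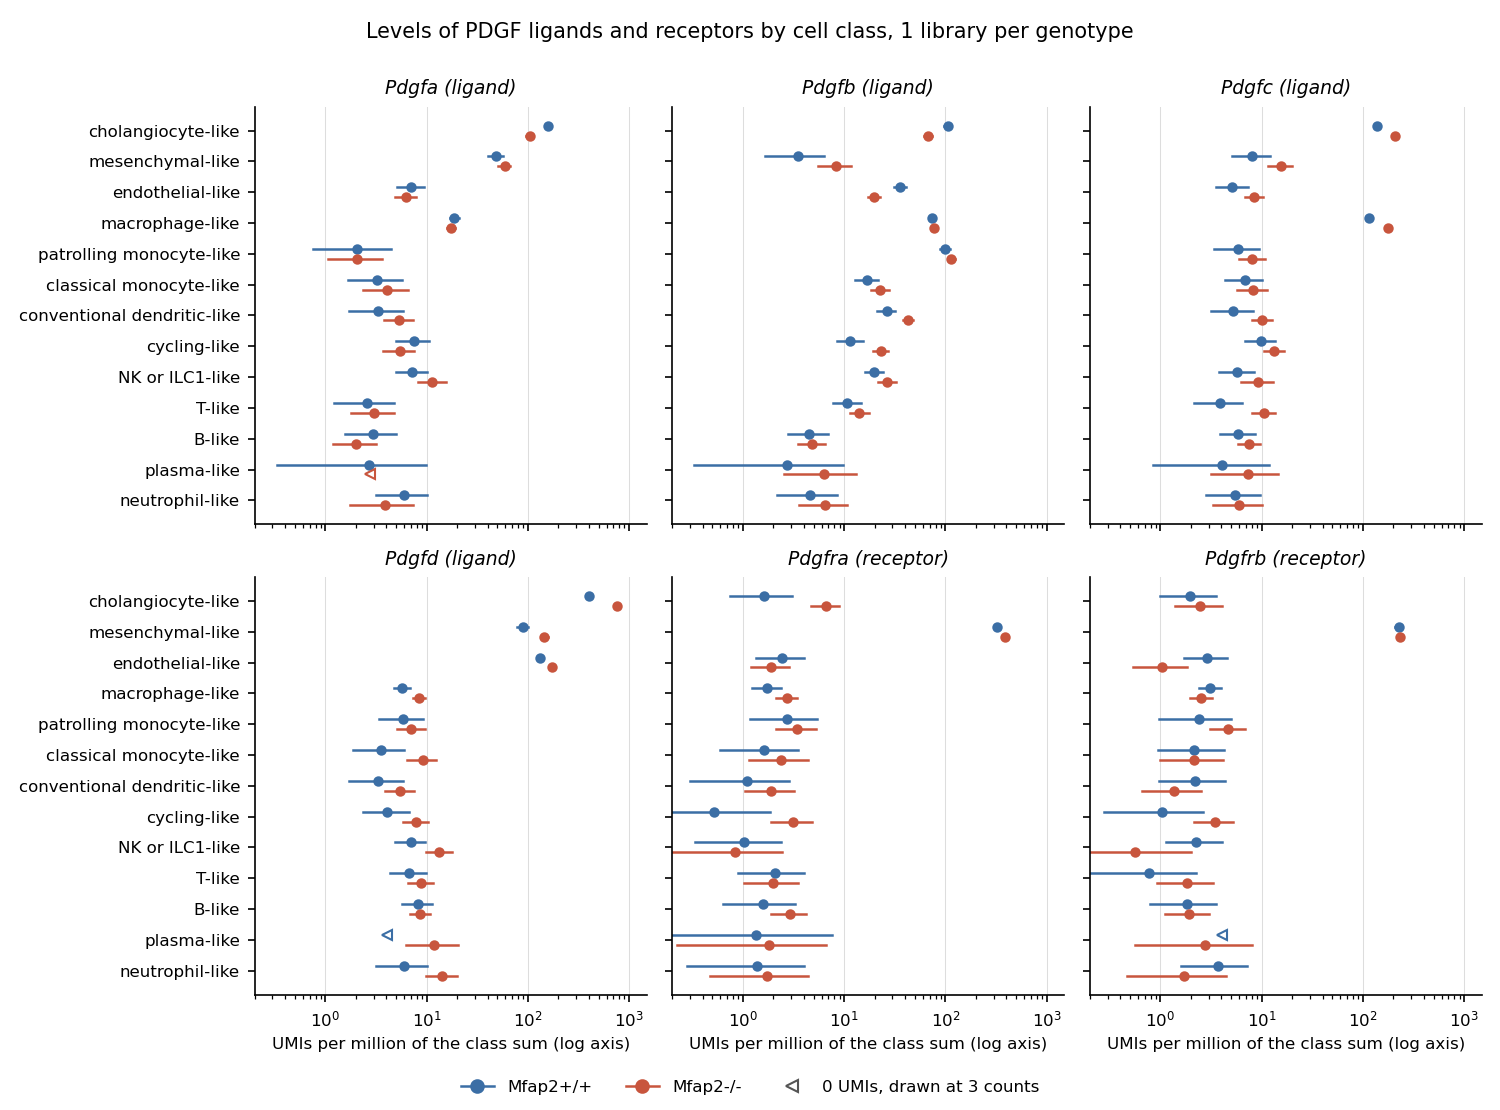
CPM of the 6 PDGF genes (one panel each, log axis) in 13 cell classes, with 1 point per library and 95% Poisson intervals; an open triangle marks a class with 0 UMIs, drawn at 3 counts. Pdgfra reached 324 and 392 CPM in mesenchymal-like cells, and no other class exceeded 2.74 in wild type or 6.60 in the knockout library.

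**Figure D2:**
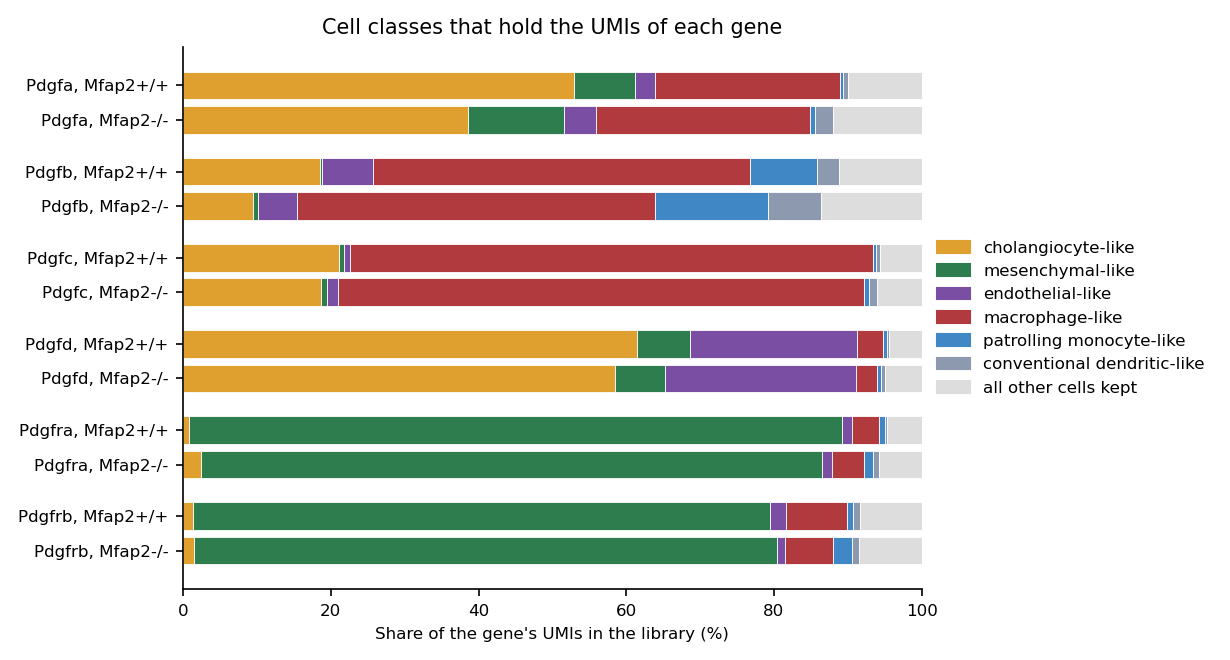
Share of each gene's UMIs (percent, stacked to 100) that fell in each cell class, one bar per gene and library. Macrophage-like cells hold 70.7% and 71.3% of Pdgfc, cholangiocyte-like cells 61.5% and 58.5% of Pdgfd, and mesenchymal-like cells 88.3% and 84.2% of Pdgfra.

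Pdgfa encodes the A chain, a ligand of the alpha receptor. In cholangiocyte-like cells it stood at 157 (147 to 168, 872 UMIs) in wild type and 105 (96.5 to 113, 633 UMIs) in knockout, with 52.9% and 38.6% of all Pdgfa UMIs. These cells led in both libraries, and their intervals did not overlap those of any other class with 50 cells. Mesenchymal-like cells came next at 48.0 (40.3 to 56.7) in wild type and 58.9 (51.3 to 67.3) in knockout, and macrophage-like cells followed at 18.8 (17.0 to 20.7) in wild type and 17.4 (15.9 to 19.0) in knockout. The remaining classes stood at or below 7.44 CPM in wild type and 11.4 in the knockout library, and their intervals overlapped one another at most places in the order.

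Within mesenchymal-like cells, Pdgfa was higher in the fibroblast-like group, at 76.0 (58.8 to 96.7) in wild type and 111 (93.2 to 130.2) in knockout, than in the stellate-like group, at 39.2 (30.5 to 49.5) in wild type and 31.4 (24.3 to 39.9) in knockout. The intervals of these groups did not overlap in either library. Hepatocyte-like cells, a remnant of 48 and 78 cells, had 22 and 13 Pdgfa UMIs, and in the wild-type library 5 cells or fewer held all of them.

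Pdgfa was unevenly spread over the cholangiocyte-like cells. The 5 richest cells held 24.1% and 24.5% of the class's Pdgfa UMIs. At least 1 Pdgfa UMI was found in 28.0% and 42.3% of the cells, and after thinning every cell to 1000 UMIs, which left out 254 and 51 shallower cells, in 17.4% and 5.94%. The share therefore went up with all UMIs and down after thinning, and no order between the libraries is read from it. In B-like cells, a class not known as a PDGF source and taken here as the background, the shares were 1.06% and 1.0%, at median depths of 3379 and 4764 UMIs against 806.5 and 9266 in cholangiocyte-like cells.

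The Pdgfa level of cholangiocyte-like cells was lower in the knockout library, with a log2 ratio of -0.58 (-0.74 to -0.44), and stayed lower under all 12 alternatives, at -1.58 with cells thinned to 1000 UMIs. Across the 11 classes with at least 20 Pdgfa UMIs, 5 ratios were above 0 and 6 below, and the interval excluded 0 only in the cholangiocyte-like class. In the fibroblast-like group the ratio was 0.53 (0.11 to 0.98) and in the stellate-like group -0.32 (-0.83 to 0.19).

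Pdgfb encodes the B chain, which binds both receptors and is known in vessels as the endothelial signal that recruits pericytes. Its order of sources differed between the libraries. In the wild type, cholangiocyte-like cells at 106 (97.4 to 115) and patrolling monocyte-like cells at 98.7 (87.6 to 111) overlapped. In the knockout library patrolling monocyte-like cells led at 114 (106 to 123), and cholangiocyte-like cells, at 67.2 (60.8 to 74.1), overlapped macrophage-like cells.

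Macrophage-like cells stood at 73.9 (70.4 to 77.6) in wild type and 76.9 (73.7 to 80.3) in knockout and, being many, contributed 51.0% and 48.5% of the Pdgfb UMIs. At least 1 UMI was seen in 37.2% and 45.5% of them and in 26.3% and 35.6% of patrolling monocyte-like cells, against 1.54% and 2.39% of B-like cells. Thinned to 1000 UMIs, the shares were 6.34% and 6.40% of macrophage-like and 8.33% and 10.9% of patrolling monocyte-like cells. At equal depth the patrolling monocyte-like share was thus the higher value, although in the wild type the intervals of the shares overlapped. Classical monocyte-like cells, the blood monocytes that enter inflamed tissue, were far lower at 16.8 (12.9 to 21.5) in wild type and 22.6 (18.2 to 27.6) in knockout. Conventional dendritic-like cells stood at 26.3 (21.3 to 32.2) in wild type and 42.4 (37.8 to 47.4) in knockout. Pdgfb was low in the cells that carry the receptors, with 10 and 30 UMIs in mesenchymal-like cells.

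Among the macrophage-like clusters, the monocyte-derived one (led by Atp6v0d2, Mmp12 and Gpnmb) had 112 (100.34 to 124) in wild type and 94.1 (86.7 to 102) in knockout. It is named from 7 of 9 listed markers, and Ccr2 and Cx3cr1 were not among those raised. Cd5l and Vsig4, markers also listed for Kupffer cells, were raised in it against all cells. The origin of this cluster was not tested. A second cluster (number 1, led by Negr1 and Arhgap22, with Ccr2 and Cx3cr1 raised but too few markers for a finer name) had 95.4 (88.9 to 102) in wild type and 80.5 (75.9 to 85.4) in knockout. The Kupffer-like cluster, the liver's resident macrophages by Clec4f, Timd4 and Marco, was the lowest at 45.5 (41.5 to 49.8) in wild type and 54.0 (48.7 to 59.8) in knockout. The order of the 3 clusters was the same in both libraries, although the intervals of the upper pair overlapped in the wild type, and in neither library did the Kupffer-like interval reach the others.

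Endothelial Pdgfb stood highest in 1 small group, although most of the class's Pdgfb UMIs, 222 and 229 in all, lay outside it. Cluster 30, with 32 and 41 cells, was marked by Gja5, Efnb2 and Gja4, genes known from arterial endothelium. Vwf was raised in it and in cluster 18 alike. Cluster 30 stood at 154 (110.4 to 210.4, 40 UMIs) in wild type and 59.8 (38.7 to 88.2, 25 UMIs) in knockout. Another vascular cluster (number 18, marked by Selp and Rspo3, genes known from venous endothelium) stood at 53.5 (42.6 to 66.4) in wild type and 45.6 (36.8 to 55.8) in knockout. Sinusoidal-like cells, the fenestrated endothelium of the liver, were lowest at 21.6 (17.2 to 26.8) in wild type and 11.2 (9.01 to 13.7) in knockout. Cluster 30 was above the sinusoidal-like cells in both libraries without overlap, and in the knockout library its interval overlapped that of cluster 18.

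The knockout library had less Pdgfb in endothelial-like cells as a whole, at 35.7 and 19.8 CPM and a log2 ratio of -0.85 (-1.13 to -0.58). All 3 named endothelial groups had ratios below 0, with -1.35 (-2.15 to -0.61) in cluster 30, -0.95 (-1.40 to -0.50) in sinusoidal-like cells and -0.23 (-0.68 to 0.21) in cluster 18. With the knockout clusters weighted to the wild-type mix, the endothelial ratio was -0.64. In cluster 30, Pdgfb was 1 of 2 PDGF genes with enough UMIs and was past 2-fold, beside 10.8% of 5385 genes past 2-fold either way in that cluster.

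In cholangiocyte-like cells the Pdgfb ratio was -0.65 (-0.84 to -0.47), but 0.28 with cells thinned to 1000 UMIs and 0.19 as a mean over cells, so its direction depended on how cells of unequal depth were weighted. The 5 richest cells held 32.7% and 24.1% of the class's Pdgfb UMIs.

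Across the 12 classes with at least 20 Pdgfb UMIs, 10 ratios were above 0 and 2 below. The interval lay above 0 in 5 classes and below 0 in 2. In patrolling monocyte-like cells the ratio was above 0 and stayed so under all 10 alternatives, from 0.14 to 0.41. In conventional dendritic-like cells Pdgfb was higher in the knockout library, with a log2 ratio of 0.68 (0.35 to 1.04). This was -0.21 under a stricter filter on cells (500 genes as the minimum, 10% mitochondrial UMIs as the maximum) and 0.0056 at Leiden resolution 2. Under both of these settings fewer cells took the class name, and the stricter filter gave 14.7 and 12.9 CPM. In cycling cells it was 0.97 (0.50 to 1.51). The cycling class mixes dividing cells of several lineages, among them cells led by the neutrophil granule genes Ltf, Ngp and Camp. These were 254 and 144 cells, and another cycling cluster (number 22) had 47 and 132, so the mix differed between the libraries. The Pdgfb ratio of the cycling class ranged from 0.65 to 2.65 over 11 alternatives. Macrophage-like cells differed little as a class at 0.057 (-0.037 to 0.15), although the Kupffer-like cluster had 0.25 (0.047 to 0.45) and the monocyte-derived cluster -0.25 (-0.44 to -0.054). Kupffer-like cells made up 853 and 477 of the macrophage-like cells, so the mix of clusters also differed between the libraries. At the wild-type mix the class ratio was -0.083.

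Pdgfc and Pdgfd, the ligands released in latent form, were higher together in the knockout library in each class with at least 20 of their UMIs (values below). Both genes span more than 100 kb. Of genes that long, 79.2% in endothelial-like to 93.7% in cholangiocyte-like cells were higher as well. The 250 bases before the RefSeq starts of Pdgfc and Pdgfd are shown here, and their part in the ratios was not tested. Both are written 5′ to 3′ on the gene's strand, on GRCm38.p6. Capitals mark the only match, a TATA box.

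Pdgfc, chr3:81036166-81036415, forward strand: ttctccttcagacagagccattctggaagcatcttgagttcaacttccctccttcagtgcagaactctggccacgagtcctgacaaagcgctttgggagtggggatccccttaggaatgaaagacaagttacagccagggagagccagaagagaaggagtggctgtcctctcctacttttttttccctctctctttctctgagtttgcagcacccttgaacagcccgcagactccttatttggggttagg

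Pdgfd, chr9:6168236-6168485, forward strand: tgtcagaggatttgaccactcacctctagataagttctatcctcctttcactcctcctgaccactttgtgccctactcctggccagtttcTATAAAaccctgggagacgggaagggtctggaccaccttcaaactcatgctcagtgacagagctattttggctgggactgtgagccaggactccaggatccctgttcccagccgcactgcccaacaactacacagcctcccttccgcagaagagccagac

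Both strands were searched for 4 motifs, with no overlap between matches in these windows. The Pdgfd window holds a TATA box at 160 to 155 bases before the start, and the Pdgfc window holds none of the 4. Of 32851 RefSeq promoter windows of the same length, 12.4% held the TATA box, spelled TATAAA. The GC box, searched as GGGCGG, was held by 32.7% of them. The CCAAT box was held by 33.8%. The AP-1 site, searched as TGANTCA, was held by 6.75%. Both windows had 3 CpG dinucleotides, against a median of 6, and 50.8% and 53.6% G or C, against a median of 52.4%. The members' windows were found in the table for 4 of the 6 genes.

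Pdgfc encodes a ligand of the alpha receptor. Of the classes, cholangiocyte-like cells stood highest at 137 (127 to 147, 761 UMIs) in wild type and 209.5 (198 to 221, 1269 UMIs) in knockout. Macrophage-like cells followed at 116 (111 to 121, 2548 UMIs) in wild type and 178 (173 to 183, 4845 UMIs) in knockout, without overlap, and held 70.7% and 71.3% of all Pdgfc UMIs. No other class with 50 cells in both libraries exceeded 9.75 CPM in wild type or 15.4 in the knockout library. At least 1 UMI was found in 47.1% and 57.6% of macrophage-like and 33.8% and 62.5% of cholangiocyte-like cells, against 1.87% and 3.67% of B-like cells. After thinning, the shares were 10.9% and 14.9% in macrophage-like, 15.2% and 18.3% in cholangiocyte-like and 0.751% and 0.681% in B-like cells.

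Pdgfc was not shared by the monocytes. Patrolling monocyte-like cells, the highest source of Pdgfb in the knockout library, had 5.82 and 8.09 CPM of Pdgfc, and classical monocyte-like cells had 6.77 and 8.16, both within the range of the lymphocyte classes. In the macrophage-like cells, at least 1 UMI of both Pdgfb and Pdgfc was found in 384 of 2076 cells (18.5%) in wild type and 594 of 2086 (28.5%) in knockout, at median depths of 10543.5 and 12782.5 UMIs. Thinned to 1000 UMIs, both were found in 13 of 2049 (0.634%) and 20 of 2063 cells (0.969%).

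Among the macrophage-like clusters, the monocyte-derived cluster was highest in the wild type, at 169 (155 to 184), ahead of the Kupffer-like cluster at 130.4 (124 to 138). In the knockout library the order was the other way round, with 276 (264 to 289) in the Kupffer-like and 238 (226 to 250.3) in the monocyte-derived cluster. Cluster 1 was lowest in both, at 78.0 (72.1 to 84.2) in wild type and 102 (96.4 to 107) in knockout. None of the intervals of the 3 clusters overlapped within a library. Taken instead as the macrophage-like cells with a Clec4f UMI, Kupffer cells stood at 142 and 229 CPM. These values were below those of the monocyte-derived cluster in both libraries, although 229 lay inside that cluster's knockout interval. The change of order thus depended on how Kupffer cells were taken.

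Pdgfc was higher in the knockout library in 12 of 12 classes with enough UMIs, and in 6 of them the interval lay above 0. Most long genes did the same (Pdgfc is one, as described below): of genes spanning 100 kb or more, 79.2% in endothelial-like to 93.7% in cholangiocyte-like cells had a ratio above 0. Alternatives were run in the 11 classes with at least 50 UMIs, and in 4 of them the Pdgfc ratio was below 0 under at least 1. After thinning it was -1.87 in classical monocyte-like, -0.18 in B-like, -0.092 in NK or ILC1-like and -0.030 in cycling cells. In the main sources the ratio stayed above 0 under every alternative run. It was 0.62 (0.55 to 0.69) in macrophage-like and 0.61 (0.48 to 0.75) in cholangiocyte-like cells. It was 1.08 (0.98 to 1.18) in the Kupffer-like cluster, past 2-fold, beside 8.11% of 12714 genes past 2-fold either way in that cluster. The identity genes of the Kupffer-like cluster differed between the libraries too, with Marco at 1828 and 404 and Clec4f at 475 and 739.5 CPM. Taken instead as the macrophage-like cells with a Clec4f UMI, 727 and 684 cells, the ratio was 0.69 (0.59 to 0.79), no longer past 2-fold.

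Pdgfd encodes a ligand of the beta receptor. Cholangiocyte-like cells were its leading class at 400.1 (384 to 417, 2225 UMIs) in wild type and 754 (733 to 777, 4569 UMIs) in knockout, with 61.5% and 58.5% of all Pdgfd UMIs. Endothelial-like cells stood at 132 (123 to 141) in wild type and 174 (166 to 182) in knockout and mesenchymal-like cells at 88.7 (78.1 to 100.25) in wild type and 146 (134 to 159) in knockout. The 3 sources kept this order in both libraries without overlap, and the next class reached 8.14 CPM in wild type and 14.2 in the knockout library.

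The cholangiocyte-like class joined a deep and a shallow cluster. The deep one (number 19, 131 and 161 cells) had a median of 21753 and 16522 UMIs per cell, and 97.7% and 100% of its cells held a Pdgfd UMI, at 403 and 769 CPM. In the shallow one (number 17, 301 and 92 cells, median 644 and 897 UMIs) Pdgfd stood at 339.6 (273 to 417) in wild type and 186 (124 to 266) in knockout. The knockout library was thus higher in the deep cluster, with a log2 ratio of 0.93 (0.86 to 1.01), and lower in the shallow one, with -0.84 (-1.53 to -0.26). Other measures also went in opposite directions in these clusters. The nuclear RNA Malat1 stood at 8684 and 13754 CPM in the deep cluster and 18340 and 10818 in the shallow one, and the median log2 ratio of genes of 100 kb or more was 0.61 and -0.22. Their part in the Pdgfd ratios was not tested. Summed hepatocyte markers in the class were 3284 and 3034 CPM beside 11389 and 8504 for its own markers. Hepatocyte-like cells had 1 and 7 Pdgfd UMIs in all.

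In the endothelium, Pdgfd was highest in the same small group as Pdgfb. Cluster 30, the Gja5-marked cells, stood at 548 (462 to 646) in wild type and 540.2 (472 to 615) in knockout, above all other endothelial groups. In the wild type it also stood above the cholangiocyte-like class, without overlap, and in the knockout library below it. Sinusoidal-like cells had 125 (114 to 137) in wild type and 171 (162 to 180.0) in knockout and cluster 18 had 89.7 (75.4 to 106) in wild type and 127 (112 to 144) in knockout. A shallow endothelial cluster (number 11, no finer name) had 106 (82.0 to 135) in wild type and 132 (108 to 160.2) in knockout. Cluster 30 was alike in the libraries within counting error, with a ratio of -0.026 (-0.33 to 0.29). By comparison the sinusoidal-like ratio was 0.45 (0.30 to 0.60). The difference between these ratios was not tested.

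**Figure D3:**
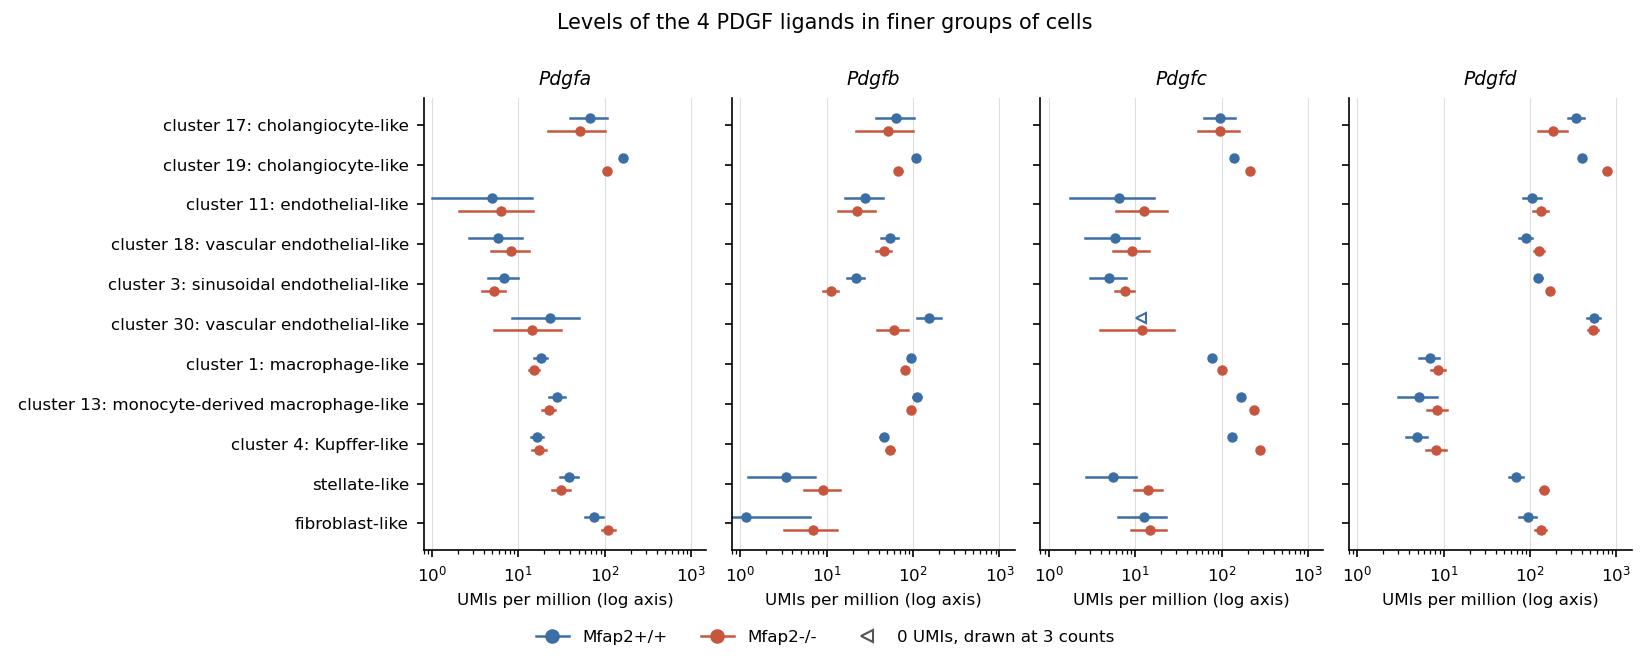
CPM of the 4 ligand genes (log axis) in the clusters of the cholangiocyte-like, endothelial-like and macrophage-like classes and in the stellate-like and fibroblast-like groups, 1 point per library with 95% Poisson intervals. Cluster 30 is the highest endothelial group for Pdgfb and Pdgfd, and the Kupffer-like cluster is the highest macrophage-like cluster for Pdgfc in the knockout library only.

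Pdgfd transcripts were also found in cells that carry its receptor. In mesenchymal-like cells, UMIs of both Pdgfd and Pdgfrb occurred in 90 of 200 cells (45.0%) in wild type and 129 of 217 (59.4%) in knockout. Pdgfa and Pdgfra occurred together in 73 of 200 cells (36.5%) in wild type and 94 of 217 (43.3%) in knockout. Median depths were 13025.5 and 15053 UMIs. Thinned to 1000 UMIs, Pdgfd and Pdgfrb occurred together in 3 (1.5%) and 6 cells (2.76%), and Pdgfa and Pdgfra in 1 (0.5%) and 4 (1.84%), too few to order the libraries. Stellate-like cells had 69.4 (57.7 to 82.7) in wild type and 146 (130.1 to 163) in knockout of Pdgfd, and fibroblast-like cells 94.4 (75.1 to 117) in wild type and 134 (115 to 155) in knockout.

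The knockout library was higher for Pdgfd in 12 of 12 classes with enough UMIs, with the interval above 0 in 8. In 3 of the 11 classes with at least 50 UMIs the ratio was below 0 under at least 1 alternative. These were conventional dendritic-like cells (-0.60 after thinning, -0.50 as a mean over cells), B-like cells (-0.21 after subtracting the median of genes of like length) and patrolling monocyte-like cells (-0.093, by the same subtraction). In the 3 main sources it stayed above 0 under every alternative run. The ratio was 0.91 (0.84 to 0.99) in cholangiocyte-like, 0.40 (0.28 to 0.52) in endothelial-like and 0.72 (0.50 to 0.94) in mesenchymal-like cells. In the stellate-like group it was 1.07 (0.77 to 1.39), past 2-fold, beside 9.34% of 11013 genes past 2-fold either way. Pdgfb and Pdgfc were past 2-fold there as well, but low, with Pdgfb at 3.36 and 9.03 CPM (6 and 19 UMIs) and Pdgfc at 5.60 and 14.3 CPM (10 and 30 UMIs).

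In the low classes the Pdgfd differences were a few CPM. Macrophage-like cells stood at 5.73 (4.78 to 6.83) in wild type and 8.48 (7.42 to 9.65) in knockout, B-like cells at 8.14 (5.70 to 11.3) in wild type and 8.68 (6.86 to 10.8) in knockout and plasma-like cells at 0 and 11.9. A count of 0 in the wild-type plasma-like cells allows up to 4.08 CPM at 3 counts. The share of cells with a UMI after thinning was 30.9% and 48.5% in cholangiocyte-like, 10.4% and 13% in endothelial-like, 5.5% and 15.2% in mesenchymal-like and 0.751% and 0.795% in B-like cells. Levels of the low classes were therefore not separable from free RNA, whose part was not tested.

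Pdgfra encodes the alpha receptor, known in liver as a marker of stellate cells and fibroblasts. It stood at 324 (304 to 346, 932 UMIs) in wild type and 392 (372 to 413, 1423 UMIs) in knockout in mesenchymal-like cells, which held 88.3% and 84.2% of its UMIs. At least 1 UMI was found in 92.5% and 86.6% of these cells, against 0.569% and 1.39% of B-like cells, and in 29.0% and 25.3% after thinning. In the other 12 classes the level ran from 0.513 to 2.74 CPM in wild type and from 0.834 to 6.60 in the knockout library.

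The highest of those 12 in the knockout library was the cholangiocyte-like class, with 9 and 40 UMIs and a ratio of 1.91 (0.96 to 3.26). It was the only PDGF gene of 6 past 2-fold in cholangiocyte-like cells, beside 7.97% of 13613 genes past 2-fold either way. Summed markers of other cells in that class were 664 and 649 CPM for mesenchymal, 78.6 and 154 for mesothelial and 120 and 248.8 for cycling cells. The mesothelial and cycling sums were thus higher in the knockout library along with Pdgfra, and their part in the ratio was not tested.

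Stellate-like cells had 336 (309 to 364) in wild type and 360.3 (335 to 387) in knockout, and fibroblast-like cells had 292 (258 to 331) in wild type and 408 (374 to 445) in knockout. The intervals of these 2 groups overlapped in both libraries. The ratio was 0.27 (0.15 to 0.39) in mesenchymal-like cells as a whole, 0.48 (0.26 to 0.70) in fibroblast-like and 0.10 (-0.055 to 0.26) in stellate-like cells. The direction did not hold under every scaling: the whole-class ratio was -0.080 with cells thinned to 1000 UMIs and -0.016 after subtracting the median of genes of like length.

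Pdgfrb encodes the beta receptor, the receptor known for driving the proliferation of activated stellate cells and the upkeep of pericytes. In mesenchymal-like cells it stood at 225 (208 to 243, 647 UMIs) in wild type and 231 (215 to 247, 838 UMIs) in knockout, with 78.1% and 79.0% of its UMIs. The other 12 classes lay between 0 and 3.66 CPM in wild type and 0.556 and 4.65 in the knockout library. At least 1 UMI was found in 85.0% and 86.6% of mesenchymal-like and 0.650% and 0.945% of B-like cells.

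Pdgfrb did not separate the mesenchymal groups or the genotypes beyond counting error. Stellate-like cells had 213 (192 to 235) in wild type and 214 (195 to 235) in knockout and fibroblast-like cells 228 (197 to 262) in wild type and 239.7 (214 to 268) in knockout. The ratio was 0.036 (-0.11 to 0.19) in the whole class, 0.011 (-0.19 to 0.21) in stellate-like and 0.070 (-0.19 to 0.34) in fibroblast-like cells. These intervals bound the difference on counting error alone and do not show that the levels were equal. Outside the class, an unnamed shallow cluster (number 25, 57 and 80 cells, led by the smooth muscle genes Myh11 and Acta2 together with the platelet gene Ppbp) had 99.3 (57.8 to 159) in wild type and 99.98 (57.1 to 162) in knockout, and its Pdgfra counts were 7 and 13 UMIs. This cluster raised 12 of 13 mesenchymal markers but took no name, because markers of another class led it. Its UMIs are not part of the mesenchymal-like shares.

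Most mesenchymal-like cells carried both receptors. UMIs of Pdgfra and Pdgfrb were found in the same cell in 159 of 200 cells (79.5%) in wild type and 167 of 217 (77.0%) in knockout. A UMI of Pdgfra alone was found in 26 and 21 cells, of Pdgfrb alone in 11 and 21, and of neither in 4 and 8. Thinned to 1000 UMIs, both were found in 10 (5%) and 10 cells (4.61%). Double-positive cells numbered 107 of 136 cells (78.7%) in wild type and 107 of 147 (72.8%) in knockout among stellate-like cells and 40 of 50 cells (80.0%) in wild type and 51 of 61 (83.6%) in knockout among fibroblast-like cells. Among cholangiocyte-like cells, whose depth differed between the libraries, Pdgfc and Pdgfd occurred together in 126 of 432 cells (29.2%) in wild type and 152 of 253 (60.1%) in knockout, and after thinning in 13 of 178 (7.30%) and 22 of 202 (10.9%).

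The genotype ratios of the 6 genes were set against all genes of the same class. No PDGF gene of 6 was past 2-fold in macrophage-like cells, where 7.24% of 14955 genes were, and none of 5 in patrolling monocyte-like cells, where 5.28% of 10635 genes were. One of 6 was past 2-fold in mesenchymal-like cells (Pdgfb, with 10 and 30 UMIs), beside 7.87% of 12430 genes, and one in endothelial-like cells (Pdgfrb, with 18 and 12 UMIs), beside 6.07% of 13748 genes. Both genes were near the bottom of their range in those classes. In the finer groups, where few UMIs stand behind most values, 1 of 6 was past 2-fold in each of clusters 1 (Pdgfrb), 13 (Pdgfra) and 19 (Pdgfra), beside 6.5% of 13284 genes, 6.01% of 11412 genes and 8.49% of 13523 genes. None was past it in cluster 3 (5 measured), cluster 11 (2), cluster 17 (4), cluster 18 (4) or the fibroblast-like group (5), beside 7.03% of 12766 genes, 6.98% of 8197 genes, 12.1% of 4027 genes, 5.16% of 10320 genes and 9.91% of 9403 genes. The larger part of the PDGF differences was thus under 2-fold, as the plot of ratios shows.

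**Figure D4:**
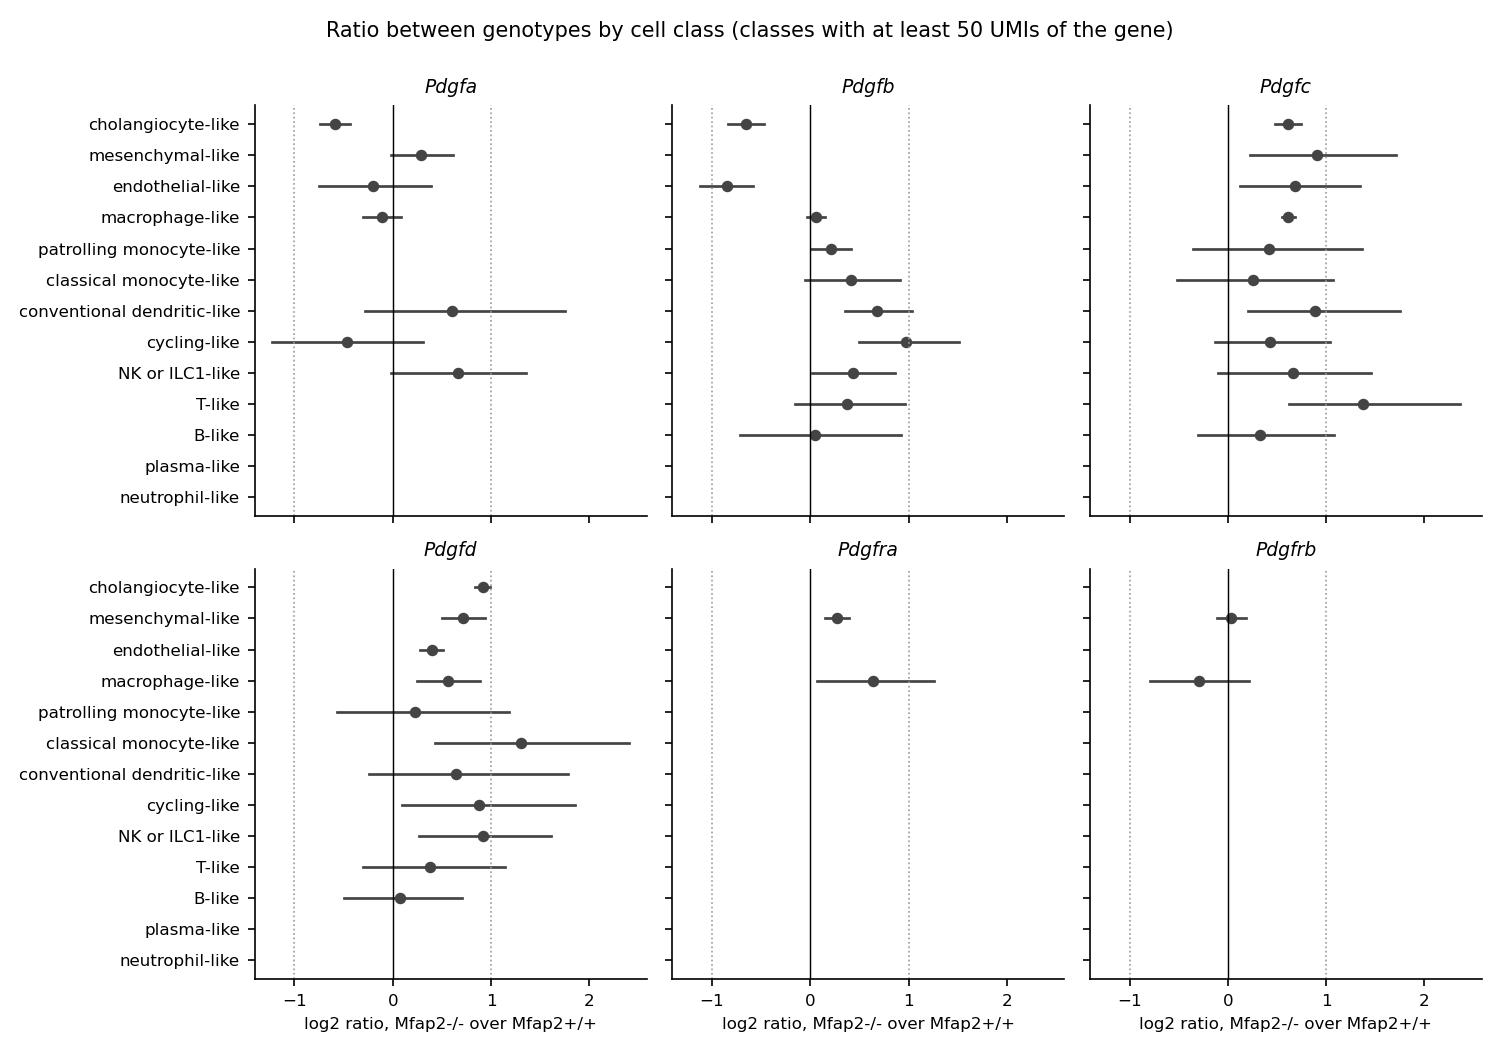
Log2 ratio of knockout over wild type for each PDGF gene in the classes with at least 50 UMIs of that gene over both libraries, with 95% counting intervals and dotted lines at 2-fold. Pdgfc and Pdgfd lie above 0 in every class plotted, and Pdgfb lies below 0 in endothelial-like and, with the weighting by UMIs plotted here, cholangiocyte-like cells.

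Over all genes, the ratio rose with the length of the gene on the genome in the classes given below. Pdgfc spans 178 kb (chromosome 3, 81036416 to 81214040, forward strand, GRCm38) and Pdgfd 210.3 kb (chromosome 9, 6168584 to 6378850, forward). Pdgfa spans 21.4 kb (chromosome 5, 138976014 to 138997370, reverse) and Pdgfb 19.1 kb (chromosome 15, 79995874 to 80014977, reverse). Among the receptors, Pdgfra spans 45.9 kb (chromosome 5, 75152292 to 75198215, forward) and Pdgfrb 39.9 kb (chromosome 18, 61045150 to 61085061, forward). The genes that were higher in 12 of 12 classes were the 2 longest of the 6. Span did not order the others. Pdgfb, the shortest, was higher in 10 of 12 classes and Pdgfa in 5 of 11. Pdgfrb was higher in 4 of 7 and Pdgfra in 6 of 8. All but Pdgfrb overlap an annotated gene on the opposite strand, and whether the counting used strand is not given in the sources used here.

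Over all genes with 20 UMIs, the median log2 ratio in macrophage-like cells was -0.089 for genes under 10 kb, 0.042 from 10 to 30 kb, 0.23 from 30 to 100 kb and 0.44 (middle 50% of genes 0.20 to 0.67) at 100 kb or more. The same order held in cholangiocyte-like cells, from -0.29 to 0.58 (middle 50% of genes 0.36 to 0.80), in mesenchymal-like cells, from -0.25 to 0.46 (middle 50% of genes 0.22 to 0.69), and in endothelial-like cells, from -0.34 to 0.29 (middle 50% of genes 0.050 to 0.49). Pdgfc in cholangiocyte-like cells, at 0.61, and in macrophage-like cells, at 0.62, lay inside the middle 50% of long genes. So did Pdgfd in endothelial-like cells, at 0.40. Pdgfd in cholangiocyte-like cells, at 0.91, lay above it, as it did in mesenchymal-like cells at 0.72.

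In the finer groups, Pdgfc in the Kupffer-like cluster, at 1.08, lay above the middle 50% of long genes there (0.26 to 0.74), and Pdgfd in stellate-like cells, at 1.07, above theirs (0.24 to 0.76). Pdgfb in endothelial-like cells, at -0.85, lay below the middle 50% of genes of 10 to 30 kb (-0.41 to 0.18). The nuclear RNA Malat1 moved the same way, at 14251 and 18480 CPM in macrophage-like and 9149 and 13678 in cholangiocyte-like cells. Whether reads from introns were counted is not given in the sources used here, and the part of nuclear or unspliced RNA in the Pdgfc and Pdgfd ratios was not tested.

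**Figure D5:**
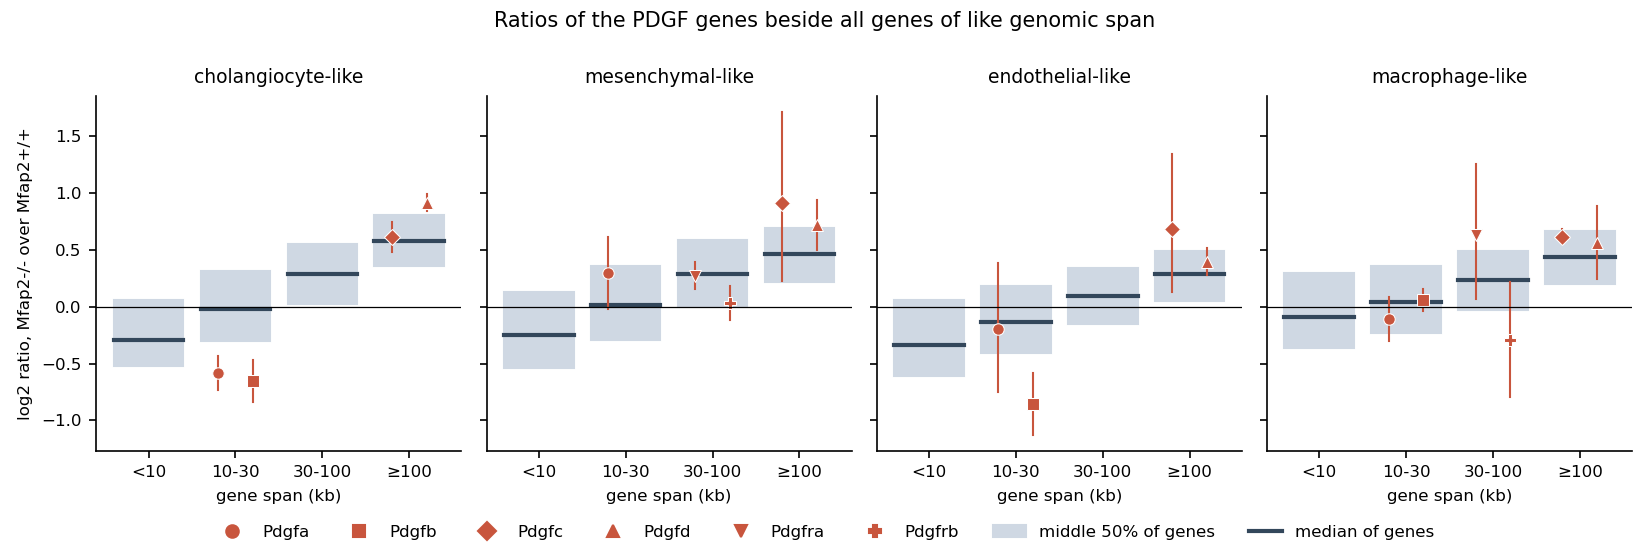
Log2 ratios of knockout over wild type against genomic span in 4 cell classes: boxes give the middle 50% of genes per span bin with the median as a line, and points give the PDGF genes with 95% counting intervals. Pdgfd in cholangiocyte-like cells sits at 0.91, above the box for genes of at least 100 kb, and Pdgfb in endothelial-like cells at -0.85, below the box for 10 to 30 kb.

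Genes that act on or after the ligands were read from lists, by count and median beside all genes. Over all genes measured, the share with a ratio above 0 was 59.8% in mesenchymal-like, 47.5% in endothelial-like, 60.5% in macrophage-like and 57.8% in cholangiocyte-like cells. The all-gene medians were 0.14, -0.032, 0.13 and 0.12, and the shares past 2-fold were 7.87%, 6.07%, 7.24% and 7.97%. The ligand-processing proteases had 5 of 6 genes measured in each of these 4 classes and 2 of 6 in patrolling monocyte-like cells. In mesenchymal-like cells 4 were higher and 1 lower, with none past 2-fold and a median log2 ratio of 0.26. In cholangiocyte-like cells 2 were higher and 3 lower, with a median of -0.34. Named after their values were seen, Plat, the tissue plasminogen activator, was past 2-fold there at 38.5 and 13.04 CPM, log2 -1.55 (-1.95 to -1.18), and Pcsk5, a proprotein convertase, at 10.4 and 27.9 CPM, log2 1.40 (0.98 to 1.88). In macrophage-like cells Furin, a protease of the secretory pathway, stood at 71.7 and 54.3 CPM, log2 -0.40 (-0.51 to -0.30).

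The binding partners Nrp1, Lrp1, Sparc and Thbs1 had a median of 0.32 in mesenchymal-like and -0.12 in endothelial-like cells. Thbs1, which encodes the matrix protein thrombospondin 1, was past 2-fold in macrophage-like cells at 28.4 and 72.9 CPM, log2 1.36 (1.23 to 1.49). In cholangiocyte-like cells Thbs1 was past 2-fold the other way, at 330.5 and 125 CPM, log2 -1.40 (-1.52 to -1.28). In endothelial-like cells Sparc, a matrix protein that binds PDGF, stood at 1097 and 742 CPM, log2 -0.56 (-0.61 to -0.52), and Nrp1, a co-receptor, at 484 and 724 CPM, log2 0.58 (0.52 to 0.64).

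The 33 signal relay genes, which carry the receptor signal inside the cell, were split 23 higher to 10 lower in mesenchymal-like cells of the knockout library, with a median of 0.30 against 0.14 over all genes and 2 past 2-fold. Of all genes there, 59.8% were higher and 7.87% past 2-fold either way. The median by span there was -0.25 under 10 kb, 0.015 from 10 to 30 kb, 0.29 from 30 to 100 kb and 0.46 at 100 kb or more. The relay genes were not set against genes of like span in any class. Fyn, a Src-family kinase, stood at 54.6 and 128 CPM, log2 1.22 (0.97 to 1.5). Plcg1, phospholipase C gamma 1, stood at 18.8 and 38.8 CPM, log2 1.03 (0.59 to 1.53). Both were past 2-fold. Fyn was also higher in endothelial-like (600.2 and 1089 CPM) and macrophage-like cells (131 and 234), with the highest ratio there of the relay genes with a mean of at least 20 CPM. Below that level, Yes1, another Src-family kinase, was the 1 relay gene past 2-fold in macrophage-like cells, at 4.69 and 9.51 CPM, log2 1.01 (0.69 to 1.36). Sos2, a Ras activator, was at 44.5 and 77.6 in mesenchymal-like cells. On the lower side there, the small GTPase Nras was at 70.9 and 49.5 CPM, and of the kinases Mapk3 was at 65.7 and 43.5 and Akt1 at 57.7 and 41.0.

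In endothelial-like and macrophage-like cells the relay list was split 21 higher to 12 lower in each, with medians of 0.19 and 0.20, beside all-gene medians of -0.032 and 0.13. The all-gene share above 0 was 47.5% in endothelial-like and 60.5% in macrophage-like cells. Jak1, a cytokine receptor kinase, was at 2213 and 3566 in endothelial-like and 615 and 1008 in macrophage-like cells. Akt1 was lower, at 84.5 and 54.0 in endothelial-like and 68.1 and 45.0 in macrophage-like cells. Map2k2, a MAP kinase kinase, was lower too, at 72.2 and 48.3 in endothelial-like and 92.9 and 66.1 in macrophage-like cells. Pik3ca in endothelial-like cells, at 87.4 and 133, and Sos1 in macrophage-like cells, at 20.7 and 29.5, were higher, while Nras in macrophage-like cells was lower at 65.4 and 41.9.

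Of the 15 negative regulators, 9 were higher and 6 lower in mesenchymal-like cells, with a median of 0.17 against 0.14 over all genes and none past 2-fold, a split close to the all-gene share of 59.8% above 0. Ptpn12, a phosphatase, stood at 159 and 275 CPM, log2 0.79 (0.63 to 0.96), and Spry2, a feedback inhibitor of receptor kinases, at 40.7 and 26.1 CPM, log2 -0.63 (-1.04 to -0.23). The 10 early response genes, which growth factors switch on within minutes to hours, were split 3 higher to 7 lower in mesenchymal-like cells, with a median of -0.22 and none past 2-fold, beside 59.8% of all genes above 0 and 7.87% past 2-fold. Ier2 was the member with the lowest ratio, at 932 and 663 CPM, log2 -0.49 (-0.57 to -0.41). In cholangiocyte-like cells 10 of 10 were lower, with a median of -0.29 and none past 2-fold, beside 57.8% of all genes above 0, an all-gene median of 0.12 and 7.97% past 2-fold. The median of genes under 10 kb was -0.29 in cholangiocyte-like and -0.25 in mesenchymal-like cells. Of genes that short, 27.3% and 32.4% were above 0 in these classes. The early response genes were not set against genes of like span.

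Early response genes also answer to cell dissociation. The 9 dissociation stress genes were all higher in mesenchymal-like, endothelial-like and macrophage-like cells of the knockout library, with medians of 0.34, 0.73 and 0.76. In cholangiocyte-like cells 6 were higher and 3 lower, with a median of 0.28. In endothelial-like cells Egr1 was higher, at 1459 and 2439 CPM, log2 0.74 (0.71 to 0.78), and Ier3 lower, at 546 and 369 CPM, log2 -0.57 (-0.63 to -0.50). The part of the dissociation in these values was not tested.

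Relatives of the PDGF genes were read for comparison. Of the VEGF family ligands, 4 of 5 were measured, and all 4 were higher in macrophage-like cells, with a median of 0.82 against 0.13 over all genes. The intervals of Vegfb (-0.022 to 0.36) and Vegfd (-0.042 to 3.25, from 5 and 17 UMIs) included 0 there. In endothelial-like cells 1 was higher and 3 lower, with a median of -0.22. Vegfa in macrophage-like cells stood at 77.3 and 129.5 CPM, log2 0.74 (0.66 to 0.83). In mesenchymal-like cells Vegfd stood at 30.6 and 56.7 CPM, log2 0.88 (0.52 to 1.27). Of the related receptor tyrosine kinases, 4 of 5 were higher in mesenchymal-like cells, with a median of 0.27, beside 0.14 and 59.8% above 0 over all genes. In macrophage-like cells 5 were higher and 1 lower, with a median of 0.47, beside 60.5% of all genes above 0. Of the 5, Flt1 had the highest level, at 13.1 and 20.2 CPM. The lower one was Csf1r, the macrophage growth factor receptor, at 805 and 572 CPM, log2 -0.49 (-0.52 to -0.46). In endothelial-like cells 4 were higher and 2 lower, and Csf1r was lower at 71.4 and 43.4 CPM, log2 -0.72 (-0.90 to -0.53). Summed macrophage markers in endothelial-like cells were 1304 and 976 CPM and differed in the same direction, and their part in the Csf1r ratio was not tested.

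The genes most alike to each PDGF gene were found over 26 sums (13 classes in 2 libraries) among 14122 genes, class markers left out. Pearson's r of log2 levels is a description, since the points share libraries and depth. For Pdgfa the leading genes were Slc45a3 (r = 0.91), Anks6 (r = 0.91), Wdr35 (r = 0.90), Efhb (r = 0.89) and Slc44a4 (r = 0.89). For Pdgfb they were Lpcat3 (r = 0.88), Car9 (r = 0.82), Chka (r = 0.79) and Acer3 (r = 0.78), the loosest match of the 6. Pdgfc came closest to Tmem117 (r = 0.94), Apoc1 (r = 0.91), Trpv4 (r = 0.90), Abcc3 (r = 0.90) and Igf1 (r = 0.87). Pdgfd came closest to Nhsl1 (r = 0.96), Phldb2 (r = 0.96), Ttbk2 (r = 0.96), Tnks1bp1 (r = 0.95) and Mcc (r = 0.95).

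Among the receptors, Pdgfra was most like Robo2 (r = 0.98), Carmn (r = 0.98), Col14a1 (r = 0.98), Cygb (r = 0.98) and Cxcl12 (r = 0.98). Pdgfrb was most like Runx1t1 (r = 0.97), Cxcl12 (r = 0.96), Sdk2 (r = 0.96), Gabra3 (r = 0.96) and Gas1 (r = 0.96). Cxcl12, a chemokine gene, stood in both receptor lists. All 10 entries of the receptor lists were highest in mesenchymal-like cells, and all 5 of Pdgfa and of Pdgfd in cholangiocyte-like cells.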

How the data were processed

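The authors deposited raw UMI counts per gene and cell barcode, 1 matrix per genotype. Per the file headers they were made with Cell Ranger 7.0.1, whereas the submitters' processing notes name Cell Ranger 3.1.0, Seurat and mouse build mm10. The treatment of intronic reads and the cell filter before deposit are not given in the sources used here. No barcode had fewer than 500 UMIs. Of 32285 gene identifiers, 32158 (99.6%) occur in GENCODE M21 on GRCm38, used for positions and spans. Promoter windows came from RefSeq on GRCm38.p6, matched by symbol.

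Barcodes under 200 genes or above 20% mitochondrial UMIs were dropped, 413 and 149 barcodes (wild type, knockout). Scrublet in scanpy 1.11.5 scored doublets, and the top 0.8% per 1000 cells, 1034 and 1295 cells, were removed (its automatic threshold marked 1.82% and 5.93%). Both libraries were clustered together from counts scaled to 10000 per cell and log-transformed, with 2000 variable genes, 30 components, 15 neighbours and Leiden resolution 1 (leidenalg 0.10.2, python-igraph 0.11.9). PDGF and pathway-list genes, Mfap2, mitochondrial, ribosomal and haemoglobin genes were left out of that step. A cluster took a name when at least 3 markers were raised 2-fold in at least 10% of its cells. Dendritic cell names were merged into 1 class, and low-depth clusters without a leading marker remained unnamed.

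UMIs were summed per class and library. Intervals at 95% came from scipy 1.17.1 and cover counting error only. The interval step was tested on simulated data. Named genes were the 6 members, the 5 highest and 5 lowest pathway-list genes per class with a mean of at least 20 CPM (stress genes apart), and the 5 most correlated genes with at least 200 UMIs, of which 1 is not reported here. The members, lists and markers were chosen with earlier results of these data known. Alternatives covered cell filters, doublets, clustering, marker gates, thinning, weighting, scaling and the UMI minimum. No test was made between genotypes, since each had 1 library.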

Additional observations from a re-analysis of the deposited data

Results flagged for a closer look

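Pdgfb and Pdgfrb each went in opposite directions between classes under the same contrast, knockout over wild type, with counting intervals on either side of 0. These differences between classes were not tested, and each side rests on 1 library.

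Pdgfb was lower in endothelial-like cells of the knockout library, with a log2 ratio of -0.85 (-1.13 to -0.58) from 222 and 229 UMIs, and higher in mesenchymal-like cells, with 1.16 (0.18 to 2.45) from 10 and 30 UMIs. The mesenchymal-like levels, 3.48 and 8.26 CPM, lay near those of B-like cells, 4.52 and 4.79. Pdgfrb was lower in endothelial-like cells, with -1.44 (-2.67 to -0.35) from 18 and 12 UMIs, and higher in cycling cells, with 1.49 (0.18 to 3.75) from 4 and 21 UMIs. All of these Pdgfrb levels were at or below 3.44 CPM, beside 225 and 231 in mesenchymal-like cells. The mix of clusters in the cycling class also differed between the libraries.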

How the results depend on the processing

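The class with the highest mean level was the same for all 6 genes in 5 of 5 alternative cell or cluster settings. No paired analysis was possible because each genotype had 1 library. Alternatives added after seeing the data were the knockout clusters at the wild-type mix, leaving out shallow clusters, subtracting the median of genes of like span, and those on finer groups and Clec4f-positive cells.

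The number of genes past 2-fold in cholangiocyte-like, endothelial-like, macrophage-like, mesenchymal-like and patrolling monocyte-like cells was 1085, 835, 1083, 978 and 561. With at least 50 UMIs it was 631, 493, 660, 528 and 265, and with no minimum 3961, 3167, 3969, 3819 and 2773.

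In cholangiocyte-like cells the Pdgfa ratio was -1.58 after thinning and -0.75 with a per-cell marker gate. Pdgfc was 0.034 after subtracting the median of genes of like span. Pdgfd was 0.72 after thinning, 0.47 as a mean per cell, 0.34 after the span subtraction, 0.82 with doublets kept and 0.79 under median-of-ratios scaling. In mesenchymal-like cells Pdgfra reversed to -0.080 after thinning and -0.016 after the span subtraction, and was 0.14 as a mean per cell and 0.14 under median-of-ratios scaling. Pdgfrb was -0.25 after the span subtraction.

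Reversals are counted here for ratios whose counting interval excluded 0. The others were Pdgfb in cholangiocyte-like cells, 0.28 after thinning and 0.19 as a mean per cell, Pdgfb in conventional dendritic-like cells, -0.21 under the stricter cell filter, and Pdgfra in macrophage-like cells, -0.42 after thinning and -0.096 as a mean per cell. Ratios whose interval included 0 changed sign as well. These were Pdgfa in endothelial-like (0.43 after thinning), NK or ILC1-like (-1.61 after thinning) and cycling cells (0.79 with each library clustered separately), Pdgfb in B-like, macrophage-like and classical monocyte-like cells, Pdgfrb in mesenchymal-like cells, and the Pdgfc ratios of 4 classes and Pdgfd ratios of 3 classes given above. The cause was not tested. Pdgfb in endothelial-like cells ranged from -0.90 to -0.44 over 12 alternatives, Pdgfc in the Kupffer-like cluster from 0.59 to 1.09 over 6, and Pdgfd in stellate-like cells from 0.57 to 1.78 over 5. With 1 library per genotype, the depth sets counting error only, and no setting gives the spread between animals.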
